A study of Mus musculus with 18 samples.

Results

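Expression of the genes that encode the proteasome was compared between RNA bound to tagged endothelial ribosomes and whole-tissue RNA in mouse brain, retina and choroid. The members were all genes whose symbol begins with Psma to Psmg followed by a digit, without the interferon-inducible catalytic genes Psmb8, Psmb9 and Psmb10. This gave 45 of the 14411 genes found in any of the 3 deposited tables, 1 table per tissue. Brain listed all 45 members among 13957 genes, Retina 44 among 12827 and Choroid 38 among 7569. Psma8 was absent from Retina, and Psma8, Psmc3ip, Psme4, Psmg1, Psmg2, Psmg3 and Psmg4 were absent from Choroid. A table kept a gene when its raw count reached 50 in every sample of at least 1 fraction. In Brain, Psma8 met this in Positive alone. In Choroid, Psma5, Psmc6, Psmd5, Psmd9, Psmd10, Psmd11, Psmd12, Psmd13, Psmd14, Psme2, Psme3 and Psmf1 met it in Input alone, so only 26 Choroid members met it in both fractions. By role the members fell into 8 alpha ring genes (Psma1 to Psma8), 4 structural beta ring genes (Psmb1 to Psmb4), 3 catalytic beta ring genes (Psmb5 to Psmb7) and 6 ATPase ring genes (Psmc1 to Psmc6). A further 11 were non-ATPase cap genes, 5 were activators or the inhibitor (Psme1 to Psme4 and Psmf1) and 7 were assembly chaperones (Psmg1 to Psmg4, Psmd5, Psmd9 and Psmd10). Psmc3ip matches the naming rule but encodes a meiotic recombination factor, not a proteasome part.

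The proteasome is the protease that degrades most ubiquitin-tagged proteins of the cytosol and nucleus. Its barrel-shaped 20S core has outer alpha rings, which gate the entry pore, and inner beta rings, in which Psmb5, Psmb6 and Psmb7 carry the chymotrypsin-like, caspase-like and trypsin-like sites. The 19S cap holds an ATPase ring of Psmc proteins, which unfolds substrates, and Psmd proteins, which bind and trim ubiquitin chains. PA28 alpha and PA28 beta, encoded by Psme1 and Psme2, form an interferon-inducible cap that opens the core without ATP and is known for its link to antigen presentation. In endothelial cells, as in other cell types, the Psmb8, Psmb9 and Psmb10 proteins can replace the catalytic subunits to form the immunoproteasome.

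All animals carried Cdh5(PAC)-cre/ERT2+ and NuTRAP+ and had been given tamoxifen, and the labels set the groups apart by tissue and fraction. Cdh5 encodes VE-cadherin, and its promoter drives the inducible Cre in endothelial cells, where NuTRAP then tags the ribosomal protein L10a with GFP. The Positive fraction was the RNA bound by an anti-GFP antibody, and the Input was supernatant of the same homogenate set aside before that pull-down. Each of the 6 groups (Brain, Retina and Choroid, Input and Positive) had 3 libraries. The labels gave neither age, sex nor the number of animals behind a library, so p-values refer to the variation among these libraries, which may in part be technical.

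Summed over the listed genes, the estimated counts per library ran from 28128866 to 43219831 in Brain Input and from 31111437 to 40112343 in Brain Positive. They ran from 20915469 to 36157140 in Retina Input, from 12325658 to 26069649 in Retina Positive and from 2018126 to 10031274 in Choroid Input. Choroid Positive was shallowest, with 713733 to 2717264, and its library 2 stood apart, with the lowest total and 13.03% of it in the ribosomal RNA precursor Rn45s. As a check of the labels, all 8 endothelial markers (among them Cdh5, Pecam1 and Cldn5) rose in Positive in each tissue. Their summed share of the listed counts went from 0.0134% to 0.0163% to 0.419% to 0.466% in Brain, from 0.00427% to 0.00568% to 0.209% to 0.392% in Retina and from 0.103% to 0.172% to 0.838% to 1.11% in Choroid. Other cells were still represented in Positive. The 7 photoreceptor markers held 3.22% to 3.86% of Retina Input and 2.57% to 4.34% of Retina Positive, and all 5 fibroblast markers rose in Brain Positive, from 0.0121% to 0.0129% to 0.138% to 0.205%. In RNA from many cells, fewer cells of a type and less RNA per cell cannot be told apart.

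The members' summed share of the listed counts was 0.463% ± 0.0258 (SD, n = 3) for the Brain Input and 0.486% ± 0.01001 for the Brain Positive libraries. It was 0.3799% ± 0.01702 in Retina Input, 0.393% ± 0.00414 in Retina Positive, 0.425% ± 0.03802 in Choroid Input and 0.3996% ± 0.0292 in Choroid Positive, with n = 3 in each. To compare genes with each other, levels in CPM (counts scaled to library size) were divided by transcript length in kilobases. Levels differed by role. In Brain Input the median was 90.1 CPM per kb over 14 core genes without Psma8 and 82.03 over 17 cap genes. The chaperones, which act in assembly and are not kept in the finished particle, had a median of 16.4 CPM per kb over 7 genes, and Psmc3ip was at 2.35 ± 0.541 CPM per kb (SD, n = 3). Among core genes Psma3 was lowest at 28.4 ± 1.47 and Psmb4 highest at 172 ± 20.2 CPM per kb, and among cap genes the scaffold gene Psmd11 was lowest at 14.8 ± 0.771 and the ATPase gene Psmc5 highest at 201 ± 13.02.

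The PA28 genes changed their place among the members between groups. Psme1 was at 40.9 ± 4.399 CPM per kb in the Input of Brain and at 138 ± 7.43 in Brain Positive, where it passed the median core gene (116). Its level was 32.8 ± 2.38 in Retina Input and 66.1 ± 20.03 in Retina Positive. In Choroid it was 112 ± 1.54 in Input, near the median core gene there (99.9), and 179.7 ± 9.77 in Positive, the highest level of any member in that group (each SD, n = 3). Several values carry a limit of counting: Psme2 has a near copy, Psme2b, and 10 members share exon bases with a gene on the opposite strand, from 0.342% of those of Psmd3 to 10.1% for Psmd13, 11.8% for Psmb7, 21.2% for Psmc3ip and 25.5% for Psmd9. A further overlap lies on the same strand in Psmb5 (12.1%), Psmg3 (9.68%) and Psmd1 (4.14%), and the use of strand in counting is not given in the sources used here.

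**Figure D1:**
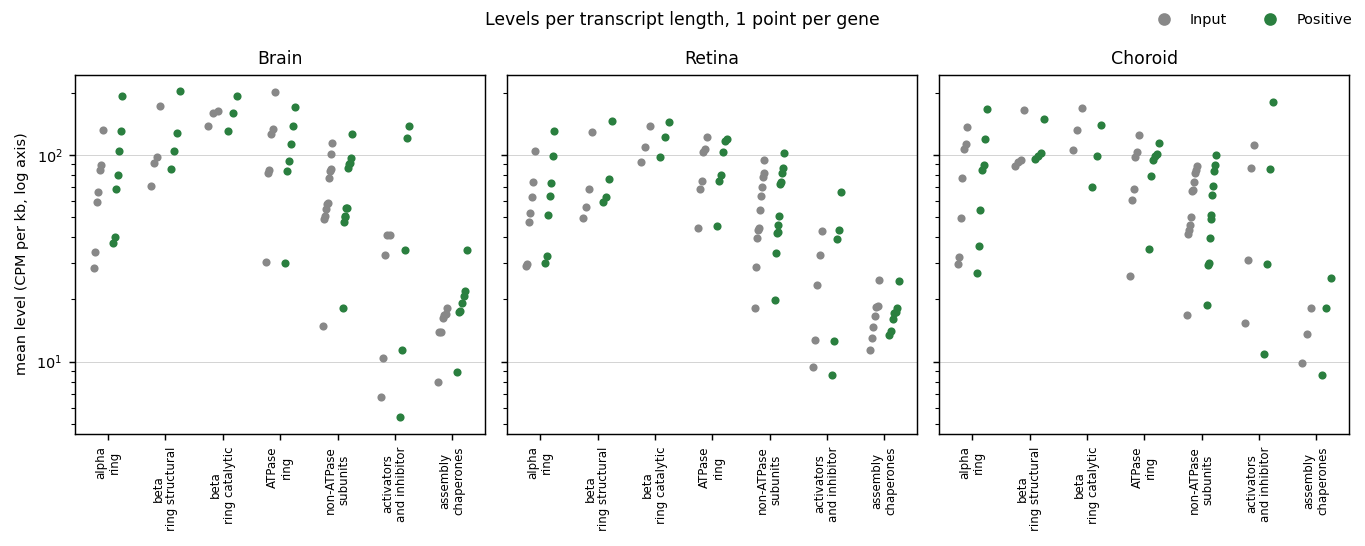
Mean level of each member except Psma8 and Psmc3ip, in CPM per kilobase of transcript (log axis), by role in the 6 groups. Colour gives the fraction, and the points carry no gene names. The medians of core and cap genes lie above those of the assembly chaperones in each group, and Psme1 and Psme2 move from low among the subunits in Brain Input and Retina Input to among the high ones in Brain Positive.

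Promoter windows from 250 bases before to 50 after the start were taken from RefSeq (GRCm38.p6) for 37 of the 45 members, in 40 windows of 300 bases. Both strands were searched for 4 short motifs. The letters GAAA, any 2 bases and GAAA again, the core of an element bound by interferon regulatory factors, stood in the windows of 5 members, or 12.5% of member windows against 3.44% of all 32851 windows. The letters TGACNNNGC, the core of the antioxidant response element, stood in windows of 6 members, or 15% against 12.4%. CCAAT was in 32.5% of member windows against 37.4% of all, and TTCNNNGAA, a site form bound by STAT factors, in 5% against 8.3%. The interferon regulatory factor motif also stood in Psmd4, which did not pass in Brain, and in Psmd9, which rose there, and these are not shown. The matches in Psme1 and Psmg4, members with large differences in Brain, in Psmb3, a core gene that also rose there, and in the catalytic genes Psmb5 and Psmb6 are shown on the strand of the gene, with the match in capitals. The first 3 lines hold the interferon regulatory factor motif or its reverse complement and the last 2 hold TGACNNNGC.
Psme1, chr14:55578493-55578522 (+): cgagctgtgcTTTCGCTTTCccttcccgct
Psmg4, chr13:34162969-34162998 (+): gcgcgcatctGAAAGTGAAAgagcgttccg
Psmb3, chr11:97703261-97703290 (+): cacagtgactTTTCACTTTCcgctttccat
Psmb5, chr14:54618023-54618052 (-): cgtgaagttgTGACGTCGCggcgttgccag
Psmb6, chr11:70525338-70525367 (+): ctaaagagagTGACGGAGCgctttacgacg
The windows of Psme2 held none of the 4 motifs, which says only that these letters are not in those windows. A match is a description of the sequence and not a measured site.

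In Brain, 12 of the 14 ubiquitous 20S core genes and both PA28 genes rose in Positive, while 3 of the 17 genes of the 19S cap rose and 4 fell. Of 45 members 24 rose and 6 fell in edgeR's quasi-likelihood test (Benjamini-Hochberg adjusted p under 0.05 over all genes), or 23 of 44 without Psma8, which was listed through Positive alone, with 38.3% of all 13957 genes called higher, 39.7% lower and 78.1% in either direction. The share of members that rose (53.3%) was above that background and the share that fell (13.3%) was below it. The median log2 fold change was 0.20 over the members and -0.02 over all genes, whose middle range ran from -0.66 to 0.62, so most members moved little beside the genes around them. In 27 of the 44 members without Psma8 the 3 Positive libraries lay above the 3 Input libraries. In 7 they lay below, and in 10 the groups overlapped. The same count was not made over all genes, so it only describes the members.

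**Figure D2:**
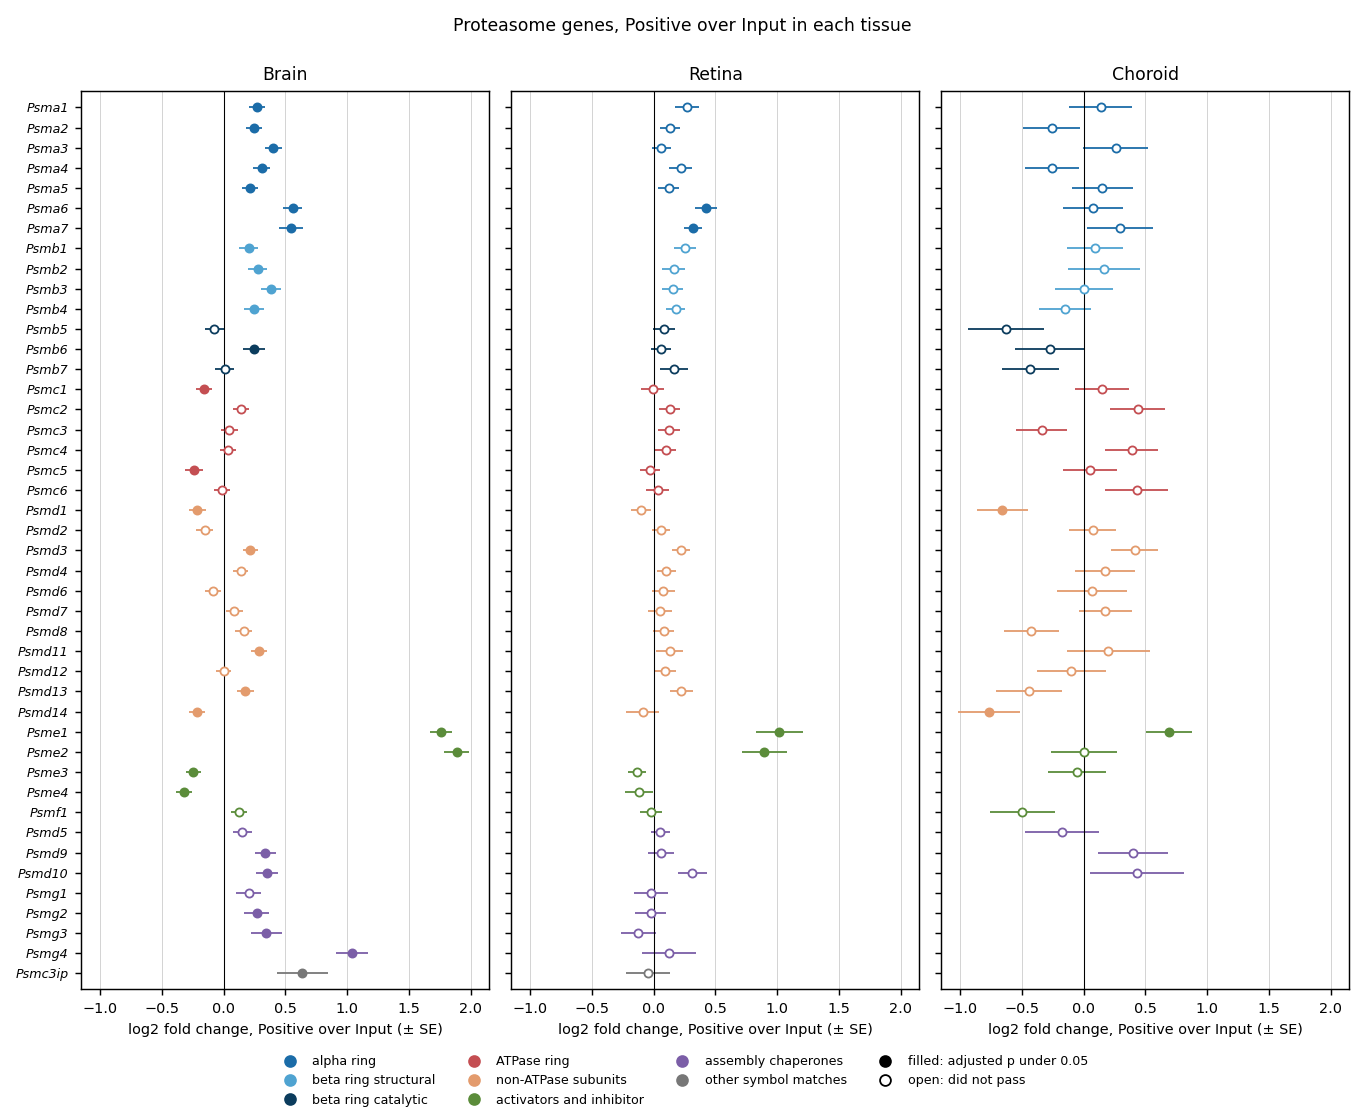
Log2 fold change of Positive over Input (± SE) for the members in Brain (44, Psma8 off the scale at 4.79 and not drawn), Retina (44) and Choroid (38), on one axis; filled symbols have an adjusted p under 0.05. Alpha ring genes lie right of 0 in Brain, and Psme1 and Psme2 stand apart in Brain and Retina.

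All 7 ubiquitous alpha ring genes rose, with a median log2 fold change of 0.31. Psma6 read 103, 89.4 and 86.001 CPM in the 3 Brain Input libraries and 138, 137 and 135 CPM in Brain Positive, with no overlap and a log2 fold change of 0.56 ± 0.08 (edgeR adjusted p = 8.96e-05). Psma7 read 138, 110.4 and 113 against 187, 174 and 165 CPM, again without overlap, with 0.54 ± 0.09 (edgeR adjusted p = 0.0004). Both encode subunits of the outer ring, and the other ubiquitous alpha genes rose by less, from 0.21 for Psma5 to 0.40 for Psma3. Psma8, the alpha gene known from testis, was listed only because of Positive, with 17, 5.1 and 11.6 estimated counts in Input and 304.4, 280.6 and 285.3 in Positive, so it had to differ (4.79 ± 0.41).

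All 4 structural beta genes rose as well, by 0.20 (Psmb1), 0.28 (Psmb2), 0.38 (Psmb3) and 0.25 (Psmb4) on the log2 scale. The catalytic genes differed from that. Psmb5, the chymotrypsin-like subunit, read 132, 123 and 117 CPM in the Input and 118, 125 and 109 CPM in Positive, with overlapping groups (-0.08 ± 0.08, edgeR adjusted p = 0.379). Psmb7, the trypsin-like subunit, read 204, 175 and 173 against 193, 179.7 and 184 CPM (0.01 ± 0.08, edgeR adjusted p = 0.93), also with overlap. Psmb6, the caspase-like subunit, read 148, 119.6 and 121 against 149, 163 and 149 CPM, where the highest Input library lay just under the lowest Positive one (0.24 ± 0.09, edgeR adjusted p = 0.0308). Across the core without Psma8, 12 of 14 genes rose and none fell, and the 2 that did not pass were catalytic. At an unadjusted p under 0.05, and in DESeq2's Wald test, these counts were the same (12 higher and 0 lower). With Brain Input 2 left out the call of Psmb6 was lost (edgeR adjusted p = 0.114), as it was without Input 3 (0.111), Positive 2 (0.118) or Positive 3 (0.0577).

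In the 19S cap, 3 of 17 genes rose and 4 fell, against 6 higher and 4 lower in DESeq2's Wald test. No ATPase gene rose (none at an unadjusted p under 0.05 either, but 1 in DESeq2's Wald test). Psmc5 read 284, 252 and 256 CPM in Input and 235, 214 and 222 CPM in Positive, without overlap (-0.24 ± 0.07, edgeR adjusted p = 0.00952), and Psmc1 fell by 0.16 (edgeR adjusted p = 0.0373). The other 4 ATPase genes did not pass, and the ring's median was 0.01. Of the non-ATPase genes, Psmd3 (0.22), the scaffold gene Psmd11 (0.29) and the lid gene Psmd13 (0.18) rose. Psmd1, which encodes a large scaffold of the base, had a log2 fold change of -0.21 ± 0.07 (edgeR adjusted p = 0.0148), and Psmd14, the lid's deubiquitinase that removes ubiquitin chains from substrates, had -0.21 ± 0.06 (edgeR adjusted p = 0.0115). With the replicate number as a block, Psmd2 also passed as lower (-0.16, edgeR adjusted p = 0.0406).

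The activators moved in opposite directions. Psme1 read 50.9, 44.5 and 41.2 CPM in Brain Input libraries and 155, 161 and 145 CPM in Brain Positive. Its partner Psme2 read 35.9, 30.9 and 28.1 and 117, 126 and 106 CPM. Every Positive library thus lay far above every Input library for both genes, with log2 fold changes of 1.76 ± 0.09 (edgeR adjusted p = 5.40e-08) and 1.88 ± 0.10 (edgeR adjusted p = 8.48e-08). Psme3, the nuclear homolog that binds the core as a ring of its own, read 107, 109.9 and 111 against 92.4, 93.6 and 90.6 CPM and fell (-0.25 ± 0.06, edgeR adjusted p = 0.00349). Psme4, the nuclear activator PA200, read 43.7, 43.6 and 43.5 against 35.9, 34.99 and 33.9 CPM and fell (-0.32 ± 0.07, edgeR adjusted p = 0.0012). The groups of both did not overlap. Psmf1, the inhibitor PI31, did not pass (0.12 ± 0.06, edgeR adjusted p = 0.0973). Beside these values, the fibroblast, mural and microglial lists had 5, 4 and 5 listed markers, of which 5, 2 and 1 rose in Brain Positive; the mural sum went from 0.0138% to 0.0151% to 0.111% to 0.152% of listed counts and the microglial sum from 0.0241% to 0.0263% to 0.00818% to 0.0143%. All 6 neuronal markers fell, from 0.666% to 0.708% to 0.259% to 0.291%. Both genes of the RNA quality list, the ribosomal RNA precursor Rn45s (1.13 on the log2 scale) and Lars2 (0.99), rose, from 0.0732% to 0.105% to 0.171% to 0.228% of listed counts. Their part in the members' values was not tested.

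Of the 7 assembly chaperones 5 rose and none fell, with the same counts at an unadjusted p under 0.05 and in DESeq2's Wald test. Psmg4, a small chaperone that acts with Psmg3 on the growing alpha ring, read 11.1, 8.44 and 8.65 CPM in Input and 19.1, 20.8 and 17.9 CPM in Positive, without overlap (1.04 ± 0.13, edgeR adjusted p = 4.08e-05). Psmg3 (0.34) and Psmg2 (0.27) rose by less, and so did Psmd9 (0.34) and Psmd10 (0.35), which escort the ATPases into the base. Psmg1 (0.20) and Psmd5 (0.15) did not pass. Psmc3ip had 0.64 ± 0.21 (edgeR adjusted p = 0.0173). Of the 30 calls in Brain, 21 held when any single library was left out. Without Brain Input 2 or Brain Input 3 the same 8 calls were lost (Psmb1, Psmb4, Psmb6, Psmc1, Psmc3ip, Psmd13, Psmg2 and Psmg3, edgeR adjusted p from 0.0547 to 0.137). Leaving out Positive 1 ended 6 calls, Positive 2 ended 7 and Positive 3 ended 5, among them Psmd1 (0.0538 without Positive 1 and 0.0527 without Positive 3), and leaving out Input 1 ended that of Psmc1 (0.0552).

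**Figure D3:**
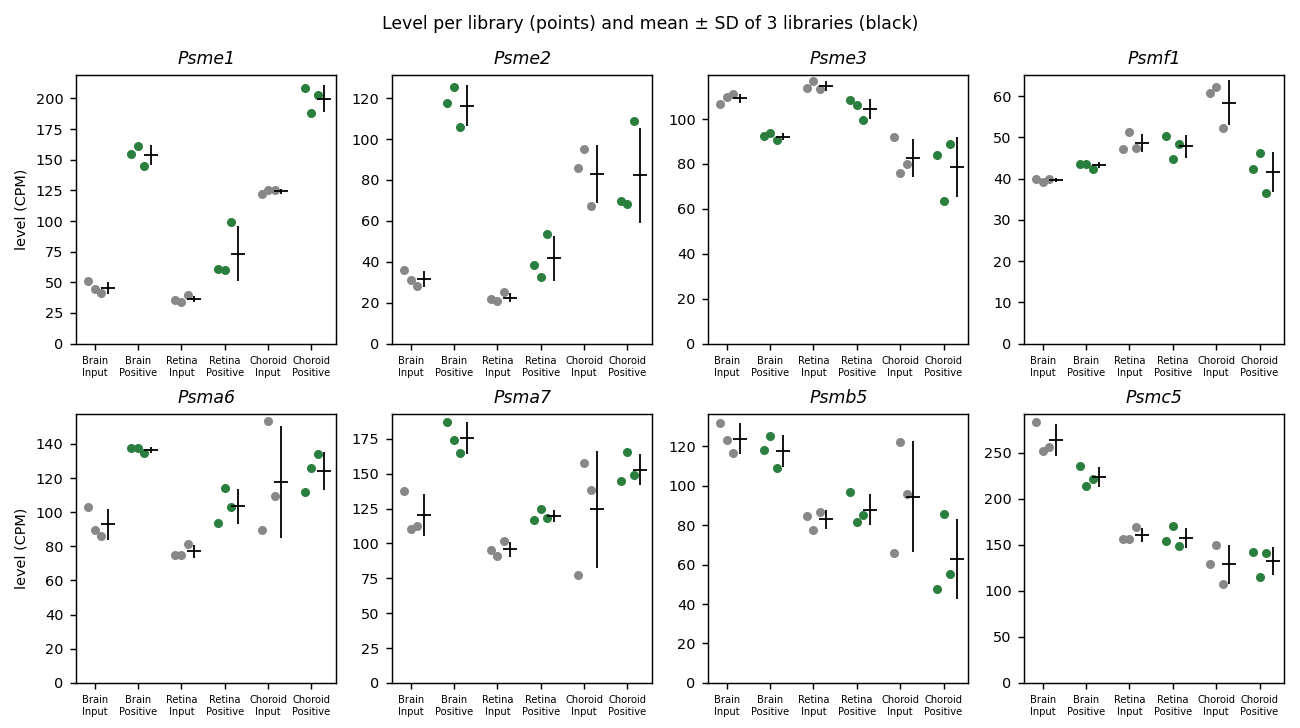
Level (CPM, linear axis from 0) of 8 members in each of the 18 libraries, by tissue and fraction, scaled within each tissue's own table; each point is 1 library. Psme1 separates Input from Positive in all 3 tissues and Psme2 in Brain and Retina, while Psmb5 overlaps in all 3.

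The core and the cap were then set against each other within each library, as the mean log2 level of 14 core genes (without Psma8) minus that of 17 cap genes. It was -0.24, -0.33 and -0.33 in the Input libraries of Brain and -0.03, -0.02 and -0.06 in the Positive ones, so all 3 Positive libraries lay above all 3 Input libraries. Retina showed the same order at a smaller size, from -0.41, -0.47 and -0.44 before the pull-down to -0.30, -0.32 and -0.34 after it. In Choroid the groups overlapped, at -0.23, 0.13 and -0.07 before and -0.16, 0.15 and -0.21 after. These are descriptions of the levels per library and were given no test.

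**Figure D4:**
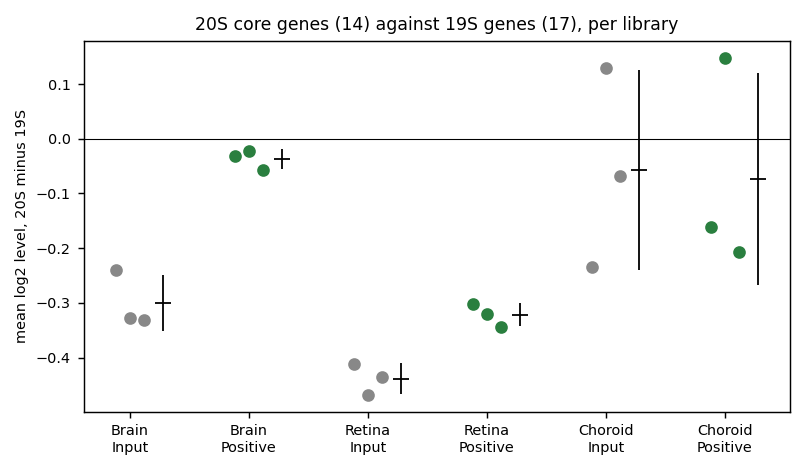
Mean log2 level of 14 core genes minus that of 17 cap genes in each library (points) with the group mean, by tissue and fraction. Positive lies above Input in Brain and Retina, and the Choroid libraries overlap.

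In Retina, only the PA28 genes and 2 alpha genes passed. Of 44 members 4 rose and none fell, with 15.3% of all genes called higher, 10.8% lower and 26.1% in either direction, so the share of members called was under the background; DESeq2's Wald test called 6 higher and 0 lower, and 10 were higher and 0 lower at an unadjusted edgeR p under 0.05. Psme1 read 35.9, 34.1 and 39.3 CPM in Retina Input and 60.9, 60.3 and 99.2 CPM in Retina Positive, with 1.02 ± 0.19 (edgeR adjusted p = 0.00655). Psme2 read 21.7, 20.8 and 25.04 and 38.5, 32.7 and 53.8 CPM, with 0.89 ± 0.18 (edgeR adjusted p = 0.00922). Neither pair of groups overlapped, and for both genes the highest library was Retina Positive 3. That library also had the highest endothelial share, 0.392% against 0.209% and 0.211%, and the lowest photoreceptor share, 2.57% against 3.73% and 4.34%. The part of these shares in the PA28 values was not tested.

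Psma6 read 75.02, 74.7 and 81.4 CPM in Retina Input and 93.5, 114 and 103 CPM in Retina Positive (0.42 ± 0.09, edgeR adjusted p = 0.012). Psma7 read 95.2, 91.001 and 102 against 117, 124 and 118 CPM (0.32 ± 0.07, edgeR adjusted p = 0.0163). Both separated the fractions in all libraries, but both calls were lost without Retina Input 1 (edgeR adjusted p = 0.0599 for Psma6 and 0.0759 for Psma7) and without Retina Input 2 (0.0647 and 0.0898). Elsewhere in the core the values were small: the catalytic genes Psmb5, Psmb6 and Psmb7 had log2 fold changes of 0.08, 0.06 and 0.17, and the 14 core genes had a median of 0.17. The 17 cap genes had a median of 0.08, and none passed. Psme3 (-0.13 ± 0.07) and Psme4 (-0.12), which fell in Brain, did not pass here, nor did any of the 7 chaperones, whose range ran from -0.12 (Psmg3) to 0.31 (Psmd10).

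In Choroid, Psme1 rose and 2 cap genes fell, 1 of them (Psmd14) listed through Input alone. Among the 26 members that met the minimum in both fractions, 1 was higher and 1 lower. The counts were lower there, and 36.6% of the 7569 listed genes were called (16.3% higher and 20.2% lower), against 1 higher and 2 lower of 38 members. Psme1 read 122, 125 and 125 CPM in Choroid Input, already above its level in Brain Input on the scale of each table, and 209, 188 and 203 CPM in Choroid Positive (0.69 ± 0.19, edgeR adjusted p = 0.0118). Its partner Psme2, listed through Input alone, read 85.999, 95.2 and 67.2 and 69.5, 68.4 and 109 CPM, with overlapping groups and 0.01 ± 0.27 (edgeR adjusted p = 0.988). Thus the 2 PA28 genes, which moved together in Brain and Retina, did not pass together in Choroid. The Psme1 call was lost without Choroid Input 3 (edgeR adjusted p = 0.0501), with the authors' scaling factors (0.61, edgeR adjusted p = 0.0522), and in a fit to the genes that met the minimum in both fractions (0.32, edgeR adjusted p = 0.179).

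Psmd1 read 254, 274 and 231 CPM in Choroid Input and 175, 123 and 179 CPM in Choroid Positive, without overlap (-0.66 ± 0.21, edgeR adjusted p = 0.0266). Psmd14 read 75.3, 76.6 and 78.8 against 53.8, 44.6 and 37.1 CPM (-0.76 ± 0.25, edgeR adjusted p = 0.0322). It was listed through Input alone, which favours a lower value in Positive, and the fit to genes that met the minimum in both fractions could not test it. Both genes had also fallen in Brain, where both met the minimum in both fractions, but the listing limits the Choroid value of Psmd14. The Psmd1 call was lost without Choroid Input 1, 2 or 3 or Positive 2 (edgeR adjusted p = 0.0671, 0.0686, 0.0637 and 0.0632), and the Psmd14 call without Input 1, 2 or 3 or Positive 3 (0.0788, 0.0683, 0.132 and 0.125). The catalytic genes had the lowest values of the core and did not pass: Psmb5 read 65.7, 122 and 95.7 CPM in the Input and 47.5, 85.9 and 55.1 CPM in Positive (-0.63 ± 0.30, edgeR adjusted p = 0.135), Psmb6 had -0.27 ± 0.28 and Psmb7 had -0.43 ± 0.23. Psmb5 was lower in Positive in 3 of 3 same-numbered pairs, with -0.59 (edgeR adjusted p = 0.0599) when the replicate number was a block, and Psmb7 was also lower in 3 of 3 pairs. Both passed as lower in the fit to genes that met the minimum in both fractions (Psmb5 -1.02, edgeR adjusted p = 0.0153, and Psmb7 -0.81, edgeR adjusted p = 0.0107). Psmb5 also passed without Choroid Positive 2 (-0.88, edgeR adjusted p = 0.0319), and Psmb7 with a filter at the median level (-0.62, edgeR adjusted p = 0.0474). At the other end, Psmc2 (0.44), Psmc6 (0.43), Psmd10 (0.43) and Psmd3 (0.41) did not pass either.

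The Choroid values depended on which genes set the scale. In the fit to genes that met the minimum in both fractions, the median of the members moved from 0.07 to -0.30, with 0 of 26 higher and 7 lower. All 2993 such genes had a median of 0.35 in the fit of all listed genes, in which 43% of them were called (33.1% higher and 9.89% lower). Those shares do not belong to the restricted fit, for which none are given, so its counts only describe the members. Markers of the pigment epithelium fell in Choroid Positive, all 5 of 5 listed, from 0.813% to 1.35% to 0.0624% to 0.0862% of listed counts, as did all 4 melanocyte markers and all 5 fibroblast markers. The RNA quality genes Rn45s (3.64) and Lars2 (5.26) rose, from 0.159% to 0.874% to 0.381% to 16.7%. Their part in the members' values was not tested.

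Whether Positive over Input itself differed between tissues was tested as an interaction in all 18 libraries over the 7270 genes in all 3 tables, among them 38 members. Here and below, shares over all genes are given for the first-named fit of each comparison and not for its alternatives. Counts of members under the alternatives therefore only describe the members. Between Retina and Brain, the PA28 genes were the members that differed. None of the 38 was higher and 2 were lower in Retina, with 29.8% of genes called (11% higher and 18.8% lower). At an unadjusted p under 0.05 there were 0 higher and 2 lower, and DESeq2's Wald test gave 3 higher and 2 lower. In the fit restricted to the more highly expressed genes, those at the median level or above, the split was 1 higher and 1 lower. The difference of log2 fold changes was -0.80 ± 0.20 for Psme1 (edgeR adjusted p = 0.00662) and -1.04 ± 0.26 for Psme2 (edgeR adjusted p = 0.00593). Both calls held without each of the 18 libraries and under the other settings that tested them (a filter at the median level left Psme2 out). The endothelial share of Positive was lower in Retina than in Brain, as given above. The endothelial markers' own Positive over Input went the other way, with 4 of 8 higher in Retina, 1 lower and a median difference of 1.11. Their part in the PA28 difference was not tested.

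Between Choroid and Brain, Positive over Input was lower for PA28 and higher for 5 of 6 ATPase ring genes. Of 38 members 7 were higher and 3 lower, against 51.8% of genes called (21.4% higher and 30.5% lower). The share of members higher (18.4%) was near that of all genes. No ATPase gene passed within Choroid, and all 6 were lower in Choroid Input than in Brain Input. Between Choroid Positive and Brain Positive, 0 of the 6 were higher and 2 lower. Psme2 differed by -1.67 ± 0.27 (edgeR adjusted p = 6.16e-05), Psme1 by -0.88 ± 0.21 (edgeR adjusted p = 0.00179) and the inhibitor gene Psmf1 by -0.44 ± 0.17 (edgeR adjusted p = 0.0392). Psme2 and Psmf1 were listed in Choroid through Input alone, which favours lower Positive over Input there and limits their values. Psmc6, called higher, was also listed through Input alone. Of the 7 higher members, 5 belonged to the ATPase ring of 6 genes. Psmc6 differed by 0.61 ± 0.21 (edgeR adjusted p = 0.0204) and Psmc4 by 0.54 ± 0.15 (edgeR adjusted p = 0.0058), followed by Psmc1 (0.50), Psmc5 (0.49) and Psmc2 (0.46), while Psmc3 had -0.19 ± 0.17. The other 2 were the cap genes Psmd2 (0.40) and Psmd3 (0.37). The ATPase ring had a median difference of 0.50, against -0.21 over 14 core genes and -0.09 over all genes, and across the other settings this median stayed between 0.35 and 0.65. In the fit restricted to genes at the median level or above, 2 of the 6 ATPase genes (Psmc4 and Psmc6) were called, and the split over all members became 2 higher and 5 lower; with DESeq2 size factors it was 8 higher and 2 lower. Choroid Input already held 0.103% to 0.172% of its counts in endothelial markers, against 0.0134% to 0.0163% in Brain Input, and the part of this in the PA28 values was not tested.

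Within Choroid, 3 of the 6 ATPase genes had every Positive library above every Input library, and in 3 the groups overlapped. Psmc4, whose call was among the more stable, is given as 1 example and not as the pattern of the ring. On the scale of each tissue's table it read 124, 113 and 118 CPM in Brain Input libraries and 124, 124 and 115 in Brain Positive, which overlapped, and 81.3, 84.4 and 96.3 in Choroid Input against 116, 107 and 121 in Choroid Positive, which did not. The calls of Psmc4, Psmc6, Psme1 and Psme2 held under each setting that tested them at the 0.05 threshold (the filter at the median level left out Psme2 and Psmf1). The calls of Psmc1, Psmc2, Psmc5, Psmd2, Psmd3 and Psmf1 were each lost when some single library was left out, which happened for 14 of the 18 libraries (all 6 Brain and all 6 Choroid libraries and Retina Input 1 and 2, edgeR adjusted p from 0.0505 to 0.102). With same-numbered Input and Positive libraries as a block, Psmc1 (0.51, edgeR adjusted p = 0.0599), Psmd2 (0.40, edgeR adjusted p = 0.0583) and Psmf1 (-0.44, edgeR adjusted p = 0.0522) were lost, which left 5 higher and 2 lower.

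Between Choroid and Retina, 5 members were higher and none lower, against 45% of genes called (21.7% higher and 23.3% lower). At an unadjusted p under 0.05 there were 6 higher and 1 lower, and DESeq2's Wald test gave 4 higher and 5 lower. With DESeq2 size factors in edgeR the split was 1 higher and 1 lower, and restricted to genes at the median level or above it was 0 higher and 8 lower. No share over all genes is given for those fits. The called members were Psmc6 (0.61 ± 0.21, edgeR adjusted p = 0.0239), Psmd9 (0.54 ± 0.20, edgeR adjusted p = 0.036), Psmc2 (0.52 ± 0.18, edgeR adjusted p = 0.0274), Psmc4 (0.52 ± 0.15, edgeR adjusted p = 0.00862) and Psmd3 (0.41 ± 0.14, edgeR adjusted p = 0.0219). Psme2 had -0.63 ± 0.27 and did not pass (edgeR adjusted p = 0.0683). None of the calls remained when only genes at the median level or above were kept, for example Psmc4 (0.15, edgeR adjusted p = 0.39), a setting that left out Psmd9 and moved the median of all genes from 0.07 to -0.25. The calls of Psmc2, Psmc6, Psmd3 and Psmd9 were also lost without some single library, namely Choroid Input 1, 2 or 3, Choroid Positive 2 or 3, Retina Input 1 or 3 or Retina Positive 3 (edgeR adjusted p from 0.0504 to 0.0819). With the replicate block, Psmd9 was lost (edgeR adjusted p = 0.0638) and Psmb5 passed as lower (-0.45, edgeR adjusted p = 0.0384).

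**Figure D5:**
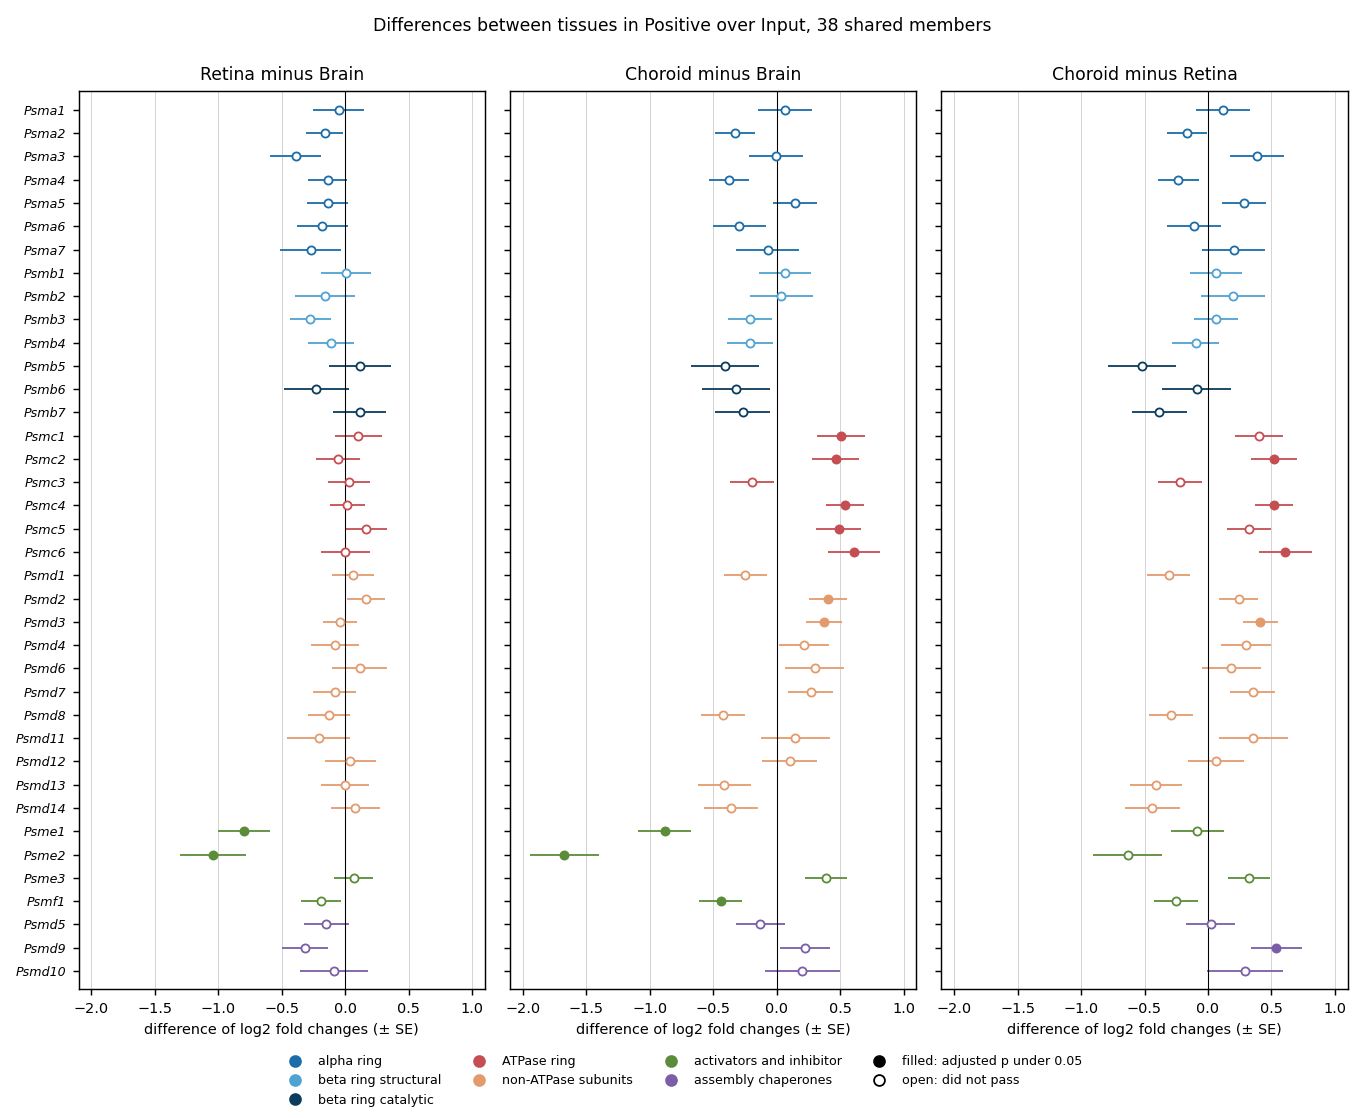
Difference between tissues in the log2 fold change of Positive over Input (± SE) for the 38 members in all 3 tables; filled symbols have an adjusted p under 0.05. Psme1 and Psme2 lie left of 0 in both comparisons with Brain, and 5 of 6 ATPase genes lie right of 0 in Choroid minus Brain.

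The Positive fractions were compared with each other on a scale shared by the 3 tissues, which had been filtered apart. Retina Positive differed from Brain Positive in 3 members that were higher and 9 that were lower, with 57.1% of genes called (29.5% higher and 27.6% lower); in a fit of all 18 libraries 2 were higher and 16 lower. Psmd5, a chaperone of the ATPase base, read 42.3, 46.5 and 43.6 CPM in Brain Positive and 67.4, 72.6 and 66.5 in Retina Positive (0.78 ± 0.15, edgeR adjusted p = 0.00113). Psmc6 read 74.8, 78.7 and 74.7 against 127, 123 and 102 CPM (0.76 ± 0.13, edgeR adjusted p = 0.000494). Both were also higher in Retina Input than in Brain Input (0.79 and 0.62), so the higher level was not restricted to the pull-down. Psme2 (-1.31 ± 0.21, edgeR adjusted p = 0.000386) and Psme1 (-0.89 ± 0.17, edgeR adjusted p = 0.00131) had the lowest values, followed by the beta genes Psmb1 (-0.64) and Psmb3 (-0.57) and the lid gene Psmd13 (-0.54). The calls of Psme3, Psmb4 and Psmc5 were lost without single libraries (Brain Positive 1, 2 or 3, Retina Positive 1 or 2, edgeR adjusted p from 0.0553 to 0.187), and the other 9 held under each setting that tested them at the 0.05 threshold.

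Choroid Positive had less of the catalytic core genes than Brain Positive. Of 38 members 1 was higher and 10 were lower, with 52.9% of genes called (28.9% higher and 24% lower), and all 3 catalytic genes were among the lower. Psmb5 read 133, 141 and 125 CPM in Brain Positive and 51.2, 92.02 and 59.4 in Choroid Positive (-0.89 ± 0.19, edgeR adjusted p = 0.00299). Psmb7 (-0.61 ± 0.13, edgeR adjusted p = 0.00301) and Psmb6 (-0.38) were lower without overlap too. In whole tissue, Choroid over Brain was also lower for Psmb5 (-0.66) and Psmb7 (-0.51), while Psmb6 (-0.23) did not pass, and none of the 3 passed the test of the tissue difference in Positive over Input; there Psmb5 passed only without Choroid Input 1 (-0.61, edgeR adjusted p = 0.0379) or Choroid Positive 2 (-0.62, edgeR adjusted p = 0.0417). Psmd13 (-0.76), Psmc5 (-0.65) and Psmd14 (-0.58) were the lowest in the cap. Psmd13 and Psmd14 were listed in Choroid through Input alone, which favours low values in Choroid Positive. The calls of 6 members (Psma2, Psmb4, Psmb5, Psmb7, Psmc5 and Psmd13) held under each setting that tested them at the 0.05 threshold. The higher call of Psme1 (0.48 ± 0.18, edgeR adjusted p = 0.042) was lost without any of 7 of the 9 libraries, and the others ended without single libraries were Psmb6, Psmc3, Psmd8 and Psmd14 (edgeR adjusted p from 0.0504 to 0.172, all libraries but Retina Positive 3).

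Against Retina Positive, Choroid Positive had 5 members higher and 8 lower, with 62.4% of genes called (31.4% higher and 31% lower). Psme1 read 72.6, 70.8 and 111 CPM in Retina Positive and 225, 201 and 219 in Choroid Positive (1.37 ± 0.18, edgeR adjusted p = 6.92e-05). Psme2 read 45.9, 38.4 and 60.2 against 74.8, 73.3 and 117 CPM (0.92 ± 0.22, edgeR adjusted p = 0.00418). For both genes every Choroid library lay above every Retina library. Psmb1 was higher (0.64) and Psmd5 (-0.67), Psmb5 (-0.65), Psmd14 (-0.59) and Psmd8 (-0.55) were lower. The listing of Psmd5 and Psmd14 in Choroid through Input alone favours low values in Choroid Positive. Leaving out 1 library ended between 1 and 8 of the 13 calls, most without Retina Positive 1, but never those of Psmb1, Psmd5, Psmd8, Psme1 and Psme2 (edgeR adjusted p of the lost calls from 0.0501 to 0.115 over all 9 libraries).

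In whole tissue, both PA28 genes were highest in Choroid. Choroid Input had the most of Psme1, at 130.5, 130.1 and 134 CPM against 64.4, 56.2 and 51.7 in Brain Input and 48.4, 46.01 and 52.1 in Retina Input on the shared scale. Over Brain Input the log2 difference was 1.2 ± 0.11 for Psme1 (edgeR adjusted p = 1.37e-06) and 1.12 ± 0.15 for Psme2 (edgeR adjusted p = 3.68e-05), and over Retina Input it was 1.43 and 1.52. In Positive, Psme1 read 174, 181 and 166 CPM in Brain and Psme2 read 132, 141 and 121 CPM, against 74.8, 73.3 and 117 CPM for Psme2 in Choroid. Between Choroid Positive and Brain Positive, Psme2 did not pass (-0.39 ± 0.22, edgeR adjusted p = 0.159).

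All 6 ATPase genes were lower in Choroid Input than in Brain Input, where 20 of 38 members were lower and 4 higher against 73.7% of genes called (36.6% higher and 37.1% lower). Psmc5 read 359, 319 and 321 CPM in Brain Input and 138, 156 and 115 in Choroid Input (-1.30 ± 0.12, edgeR adjusted p = 1.45e-06). Restricted to genes at the median level or above, 4 members were lower (Psmc4, Psmc5, Psmd2 and Psme3) and 4 higher (Psma4, Psma6, Psmd1 and Psmd8), and the members' median moved from -0.33 to -0.02. Choroid Input had 6 members higher and 15 lower than Retina Input (79.6% of genes called, 34.8% higher and 44.7% lower), but 9 higher and 7 lower with DESeq2 size factors and 10 higher and 2 lower restricted to genes at the median level or above, with Psmc6 (-1.06) and Psme3 (-0.81) lowest. Retina Input had 5 higher and 13 lower than Brain Input (67.4% called, 34.7% higher and 32.8% lower), or 3 and 21 with DESeq2 size factors and 1 and 11 with the median filter, with Psmb1 (-0.79), Psmd13 (-0.68) and Psmc5 (-0.63) lowest. Under each setting that tested them at the 0.05 threshold, 7 of the 24 calls held for Choroid over Brain, 8 of 21 for Choroid over Retina and 8 of 18 for Retina over Brain. Leaving out any 1 of the 9 Input libraries ended calls for Choroid over Brain (edgeR adjusted p from 0.0510 to 0.162) and for Choroid over Retina (0.0505 to 0.120), as did any of the 6 Brain and Retina Input libraries for Retina over Brain (0.0502 to 0.158).

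The immunoproteasome genes, which are no members, rose in all 3 tissues. Psmb8, Psmb9 and Psmb10 had log2 fold changes of 4.19, 4.76 and 1.26 in Brain, 3.41, 3.82 and 1.82 in Retina, and 1.39, 1.78 and 1.33 in Choroid. Of 7 listed partners without a Psm symbol, 3 rose and 3 fell in Brain, near the shares over all genes (38.3% higher and 39.7% lower). Pomp, the maturation factor of the core, rose in Brain (0.89 ± 0.09, edgeR adjusted p = 1.30e-05), in Retina (0.52) and in Choroid (0.90 ± 0.29, edgeR adjusted p = 0.0289). The cap-bound deubiquitinases Usp14 (-0.78) and Uchl5 (-0.56) fell in Brain. In Retina 2 of the 7 partners rose and in Choroid 1, and none fell. Of the regulators of proteasome gene expression, 5 of 6 rose in Brain, with Nfe2l2 at 2.91 and Nfe2l1 at 0.38. In Retina 1 of 6 rose (Nfe2l2, 0.93) and in Choroid 1 of 5 (Nfe2l2, 0.88), near the shares over all genes there (15.3% and 16.3% higher).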

How the data were processed

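RNA of Input and Positive fractions was sequenced with a directional kit, per the labels, in 18 libraries. The authors deposited raw values that are expected counts (fractional estimates), per the file headers, beside normalized values on a log2 scale. The build was mm10 and DESeq was used, per the submitters' processing notes. Aligner, counter and strand use: not given in the sources used here. A listed gene had 50 or more raw counts throughout at least 1 of the fractions, per the file headers. No value column was left unmapped (0).

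Expected counts were rounded and fitted with edgeR 4.0.16 in R 4.3.3 (TMM scaling, a minimum count of 10 that removed 0 genes, quasi-likelihood F test, Benjamini-Hochberg over all genes tested, threshold 0.05). Residual degrees of freedom were 4 within a tissue, 12 for interactions and 6 between tissues. The fits were also run on simulated data with changes larger than those of most members, so that run does not bear on small changes. DESeq2 1.42.0 served as an alternative, with other scalings, filters, the replicate block and each library left out. The authors' factors, recovered from raw and log2 values, matched 99.988%, 99.995% and 99.978% of Brain, Retina and Choroid values within 0.001. Levels are TMM-scaled CPM, SE belongs to a log2 fold change and SD to 3 libraries. Transcript lengths came from GENCODE for GRCm38 and promoters from RefSeq for GRCm38.p6. No 2 libraries of a group matched within sampling noise (chi-square per degree of freedom from 6.90 to 77.5).

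Input and Positive of 1 number come from 1 homogenate, per the labels' protocol. Their deviations from group means correlated above 0.1 in 8 of 9 pairs (from -0.02 to 0.29); the lowest was Retina 3.

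The members, role groups and gene lists were chosen with earlier results of these data known. Named singly were the catalytic genes, the 4 largest and 4 smallest values in each comparison, members absent from a table or listed through 1 fraction, and Psmc3ip; members named beside these were chosen after their values were seen.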

Additional observations from a re-analysis of the deposited data

Results flagged for a closer look

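Among the differences between tissues in Positive over Input, 17 single-gene values passed the test of the difference itself. Between Retina and Brain these were Psme1 (-0.80 on the log2 scale) and Psme2 (-1.04), the PA28 genes. Between Choroid and Brain they were Psme1 (-0.88), Psme2 (-1.67) and the inhibitor gene Psmf1 (-0.44) on the lower side. Psme2 and Psmf1 were listed in Choroid through Input alone, which favours that side. On the higher side were the ATPase genes Psmc1 (0.50), Psmc2 (0.46), Psmc4 (0.54), Psmc5 (0.49) and Psmc6 (0.61) and the cap genes Psmd2 (0.40) and Psmd3 (0.37). Between Choroid and Retina, Psmc2 (0.52), Psmc4 (0.52), Psmc6 (0.61), Psmd3 (0.41) and the chaperone gene Psmd9 (0.54) passed. The Choroid minus Brain and Choroid minus Retina values share the Choroid libraries, so they are not separate observations of Choroid.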

How the results depend on the processing

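Under the alternatives, every called member was followed for whether its call held. Single values were summarised only for the catalytic genes and the 4 largest and 4 smallest members of each comparison. For the interactions the largest and smallest were taken among called members. Of the 1920 values of these genes, 1711 kept their direction and side of the threshold, 156 no longer passed, 31 newly passed and 22 changed sign. The causes of these moves were not tested. Shares over all genes are not given for the alternatives, so counts of members under them only describe the members. In Brain the count of members higher stayed between 16 and 30 under every alternative, and the PA28 calls in Brain and Retina and their differences between Retina and Brain held in each fit that tested them. The depth of Choroid Positive and the table's minimum count limit the Choroid values, since 12 of its members did not meet the minimum in Positive.

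From here to the replicate block, a count is listed only where it moved by a ratio above 1.5, or to or from 0. Directions left out moved less or not at all. At an adjusted p under 0.01, Brain Positive over Input had 3 members lower, Retina 2 higher, and Choroid 0 higher and 0 lower. At that threshold the interactions Choroid minus Brain and Choroid minus Retina each had 1 higher. Psme1 and Psme2 stayed lower for Choroid minus Brain. Among Positive fractions it left 5 lower for Retina over Brain, 0 higher and 5 lower for Choroid over Brain, and 3 higher and 2 lower for Choroid over Retina. Among Input fractions it left 3 higher and 5 lower for Retina over Brain, 2 higher for Choroid over Brain and 7 lower for Choroid over Retina.

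Restricted to genes at the median level or above, the members' median was -0.13 for Choroid Positive over Input. The interaction Retina minus Brain then had 1 higher, 1 lower and a median of 0.19, Choroid minus Brain had 2 higher, 5 lower and a median of -0.17, and Choroid minus Retina had 0 higher, 8 lower and a median of -0.31. Among Input fractions Retina over Brain had 1 higher, Choroid over Brain 4 lower and a median of -0.023, and Choroid over Retina 10 higher, 2 lower and a median of 0.21. With the authors' factors Choroid Positive over Input had 0 higher. With only genes at the minimum in both fractions it had 0 higher, 7 lower and a median of -0.30.

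With DESeq2 size factors in edgeR, the medians were 0.14 for Retina minus Brain and 0.15 for Choroid minus Brain, and Choroid minus Retina had 1 higher and 1 lower. The same factors gave 0 higher for Choroid over Brain in Positive, and in Input 3 higher and 21 lower for Retina over Brain and 7 lower and a median of -0.047 for Choroid over Retina. DESeq2's Wald test gave 3 higher and a median of 0.14 for Retina minus Brain, a median of 0.14 for Choroid minus Brain and 5 lower for Choroid minus Retina. It gave 16 lower for Retina over Brain, 2 higher for Choroid over Brain and 8 higher for Choroid over Retina in Positive. In Input it gave 22 lower for Retina over Brain, and 10 higher, 9 lower and a median of -0.037 for Choroid over Retina. With all 18 libraries in 1 fit, Positive had 16 lower and a median of -0.28 for Retina over Brain, and 0 higher, 16 lower and a median of -0.27 for Choroid over Brain.

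With the replicate number as a block, Brain had 24 higher and 7 lower, Retina 4 and 0, and Choroid 1 and 2. The blocked interactions had 0 higher and 2 lower for Retina minus Brain, 5 and 2 for Choroid minus Brain, and 4 and 1 for Choroid minus Retina. Beside the calls named with the block in the results, the block changed no other call within a tissue or an interaction. Between tissues the numbers are only numbers, with 3 of 9 same-numbered correlations over 0.1 in each fraction. There the block gave 0 higher and 8 lower for Choroid over Brain in Positive, 2 and 7 for Retina over Brain, and 4 and 8 for Choroid over Retina.

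Leaving out 1 library at a time gave 2 to 5 members higher in Retina, and 0 to 1 higher and 0 to 2 lower in Choroid. For Choroid minus Brain it gave 3 to 8 higher, 2 to 6 lower and medians from -0.12 to 0.065, and for Choroid minus Retina 2 to 7 higher, 0 to 3 lower and medians from 0.0025 to 0.22. Among Positive fractions the ranges were 0 to 4 higher for Choroid over Brain, 3 to 6 higher and 2 to 10 lower for Choroid over Retina, and 2 to 5 higher for Retina over Brain. Among Input fractions they were 3 to 5 higher and 6 to 19 lower for Retina over Brain, 2 to 4 higher for Choroid over Brain and 7 to 19 lower for Choroid over Retina.

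Among the genes whose single values were summarised, the values that changed sign were all of catalytic genes that had not passed. The choice of genes set this, since other members with values near 0 were left out of that summary. Role medians also changed sign in Choroid, in the fit to genes that met the minimum in both fractions. There the alpha ring moved from 0.14 to -0.26 and the structural beta genes from 0.05 to -0.33. Psmb7 in Brain ranged from -0.035 (without Brain Input 3) to 0.088 when 1 library was left out, with -0.027 without Brain Input 2 and -0.013 without Brain Positive 1, and it was -0.0033 with the median filter. Leaving out Choroid Input 2 turned Psmb6 to 0.12 in Choroid (lowest -0.48), to 0.033 for Choroid minus Brain (lowest -0.52) and to 0.26 for Choroid minus Retina (lowest -0.29), where it was 0.015 with the replicate block. The median filter gave Psmb6 0.0054 for Retina minus Brain (-0.29 to -0.18 with 1 library left out) and 0.20 for Choroid over Brain in Input (-0.57 to -0.032). For Choroid over Retina in Input, Psmb6 was 0.055 with DESeq2 size factors, 0.068 in the Wald test and 0.34 with the median filter, and -0.42 to 0.12 with 1 library left out, the sign turning without Choroid Input 1 or 3 (0.031). Psmb7 was there 0.082 with DESeq2 size factors, 0.081 in the Wald test and 0.36 with the median filter, and -0.20 to 0.12, turning without Choroid Input 1 or Retina Input 3 (0.036). Psmb5 was there 0.25 with the median filter and -0.34 to 0.025, turning without Choroid Input 1.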

Other observations

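Some genes that act upstream of the proteasome were examined apart from its subunits, with edgeR's quasi-likelihood test. Of the 15 listed in Brain, 7 rose and 5 fell in Positive, with a median log2 fold change of 0.10. Over all genes there, 38.3% were higher and 39.7% lower. In Retina 1 of 15 rose and 3 fell, against 15.3% and 10.8% of all genes. Only some of these genes are named here. In Brain Positive, Vcp (0.39 on the log2 scale), the segregase that pulls tagged proteins out of complexes and membranes, rose. The ubiquitin-activating enzymes Uba1 (-0.22) and Uba6 (-0.81) and the shuttle genes Ubqln1 (-0.36), Ubqln2 (-0.79) and Ubqln4 (-0.70) fell. In Retina Positive, Ubqln2 (-0.25) and Ubqln4 (-0.29) fell, while Vcp (0.10), Uba1 (-0.04) and Ubqln1 (-0.04) did not pass. In Choroid none of these genes that were listed passed, also at an unadjusted p under 0.05, with Ubqln1 at -0.46 ± 0.27 (SE). They were chosen with earlier results of these data known, and their values are given as a description.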
